A study of Mus musculus with 6 samples.

Results

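Egr1, Egr2, Egr3, Fosb, Ier3 and Nr4a3 are immediate early genes, which cells can transcribe within minutes of a stimulus without first making new protein. These 6 genes were taken by symbol from the 581 genes of the deposited table, and all 6 were found there once each. RNA sequencing had been done on the wild type mouse fibroblast line NIH-3T3, which came from embryos and divides without limit, grown either on a scaffold called Nanopore #3 (3 libraries) or on standard plates (3 libraries). Both groups were kept in DMEM with 10% fetal bovine serum, which itself carries growth factors. Material of the scaffold, culture time, time of the last medium change and whether replicates were separate cultures are not given by the labels, so p-values measure the spread between these libraries, which may be technical. The table holds genes its authors had selected as differing between the same groups. The 6 genes were chosen by their measured scaffold and plate values in these same libraries. Their differences between scaffold and plate are therefore given as a description, without a test, and p-values of other genes of the table are no independent evidence of a difference.

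In fibroblasts, growth factors and serum act through the MAP kinase ERK, which phosphorylates ternary complex factors bound with serum response factor at CArG boxes in immediate early promoters. Cyclic AMP and calcium act through CREB at cAMP response elements. Many of the proteins made are transcription factors: the Egr proteins bind GC-rich DNA through zinc fingers, and Fosb pairs with Jun proteins to form AP-1. Ier3 is a small protein linked to cell survival and ERK signalling, and Nr4a3 is an orphan nuclear receptor.

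Values in the table are normalised read counts, that is, reads of a gene divided by a size factor of its library, not corrected for gene length. Over the 581 genes, scaffold replicates 1 and 2 held 288435 and 276519 reads and plate libraries held 264178 to 293198. Scaffold replicate 3 had no read numbers accepted, because its scaling step of 0.99 lay too close to 1. In limma on log2(value + 1), 99.7% of the 581 genes passed a Benjamini-Hochberg adjusted p of 0.05 between scaffold and plate, 32.2% higher and 67.5% lower on the scaffold. Lower genes made up 67.7% of the called genes, against 52.4% with libraries rescaled to equal medians and 53.1% after quantile normalisation. These rescalings moved the median log2 difference of all genes up by 0.74 and 0.63, and none of the 6 genes changed direction under either. The table holds 2 of 13 fibroblast markers looked for, Col1a1 and Col1a2, both lower on the scaffold. It also holds 1 of 9 macrophage, 1 of 8 epithelial and 1 of 9 muscle markers, and none of the 7 endothelial and 7 adipocyte markers; genes outside the table were not analysed here. Mrc1 was at 106 to 150 on the scaffold and 29.4 to 46.3 on plates. Krt8 was at 29.8 to 37.6 on the scaffold and 13.3 to 17.5 on plates, and Chrna1 averaged 150 ± 29.2 on the scaffold and 26.9 ± 7.02 on plates. Their part in the results was not tested. Because these are bulk libraries, fewer cells expressing a gene and less RNA per cell cannot be told apart.

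Of the 6 genes, 5 were higher on the scaffold and Nr4a3 was lower, in a table where 32.2% of genes were called higher and 67.5% lower. Groups did not overlap for any of the 6, as for 98.6% of all genes in the table, so this says nothing particular about them. Egr1 had the second largest log2 difference of the 581 genes. Egr3 stood at 32, Ier3 at 54, Fosb at 81 and Egr2 at 138 in the same order. Exons of the 6 genes are shared with no other gene in GENCODE M21, and their starts, ends and exon lengths there are those of the table.

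Egr1 (ENSMUSG00000038418, GRCm38 chromosome 18, 34859823 to 34864984) encodes the best known zinc finger factor of the serum response. Its normalised counts were 1326.5, 922.5 and 622.6 in scaffold replicates 1, 2 and 3, and 91.0, 103.9 and 88.5 in plate replicates 1, 2 and 3. The lowest scaffold library was 5.99 times the highest plate library, while the scaffold libraries themselves differed by up to 2.13 times. Means were 957 ± 353 on the scaffold and 94.5 ± 8.27 on plates (SD, n = 3 each), a 10.1-fold ratio and a log2 difference of 3.26 (SE 0.234).

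Egr3 (ENSMUSG00000033730, GRCm38 chromosome 14, 70077203 to 70082614), a relative of Egr1 known from lymphocytes, nerve and muscle spindles, had 497.7, 440.6 and 505.8 on the scaffold and 120.4, 99.8 and 119.9 on plates. All scaffold libraries were at least 3.66 times any plate library, and they lay within 1.15 times of each other. Means of 481 ± 35.5 on the scaffold and 113 ± 11.8 on plates gave a 4.25-fold ratio (log2 difference 2.08, SE 0.128).

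Egr2 (ENSMUSG00000037868, GRCm38 chromosome 10, 67535475 to 67542188), also called Krox20 and known for its role in myelinating Schwann cells, was the least abundant of these Egr genes, also per kilobase. It had 77.1, 76.3 and 64.3 on the scaffold and 37.7, 34.0 and 24.7 on plates. The groups were nearest here, with the lowest scaffold library at 1.71 times the highest plate library. Means of 72.6 ± 7.14 on the scaffold and 32.1 ± 6.67 on plates gave a 2.26-fold ratio (log2 difference 1.17, SE 0.217).

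Fosb (ENSMUSG00000003545, GRCm38 chromosome 7, 19302696 to 19310051), a Fos family partner in AP-1, had 190.2, 151.5 and 174.2 on the scaffold. On plates it had 55.2, 57.6 and 69.5. The lowest scaffold library was 2.18 times the highest plate library. Means were 172 ± 19.5 on the scaffold and 60.8 ± 7.65 on plates (2.83-fold, log2 difference 1.49, SE 0.164).

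Ier3 (ENSMUSG00000003541, GRCm38 chromosome 17, 35821684 to 35822923) was the most abundant of the 6, also per kilobase, and had the closest scaffold replicates. It had 5497.3, 5485.4 and 5581.9 on the scaffold and 1792.0, 1555.9 and 1688.4 on plates. Scaffold libraries differed by 1.02 times and plate libraries by 1.15 times. Means were 5522 ± 52.6 on the scaffold and 1679 ± 118 on plates, a 3.29-fold ratio (log2 difference 1.72, SE 0.0693).

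Nr4a3 (ENSMUSG00000028341, GRCm38 chromosome 4, 48045153 to 48086447) was the exception in direction and the lowest in abundance. It had 9.25, 9.53 and 2.97 on the scaffold and 24.8, 17.5 and 23.8 on plates. Every plate library was at least 1.84 times the highest scaffold library, and scaffold replicate 3 stood below the other scaffold libraries. Means were 7.25 ± 3.71 on the scaffold and 22.0 ± 3.97 on plates, a log2 difference of -1.60 (SE 0.422). The value rests on few reads, with 9 in each of scaffold replicates 1 and 2 and 27, 17 and 25 in plate replicates 1, 2 and 3. Over these 5 libraries the ratio of scaffold to plate was 0.423 (95% exact interval 0.237 to 0.719, counting error only).

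**Figure D1:**
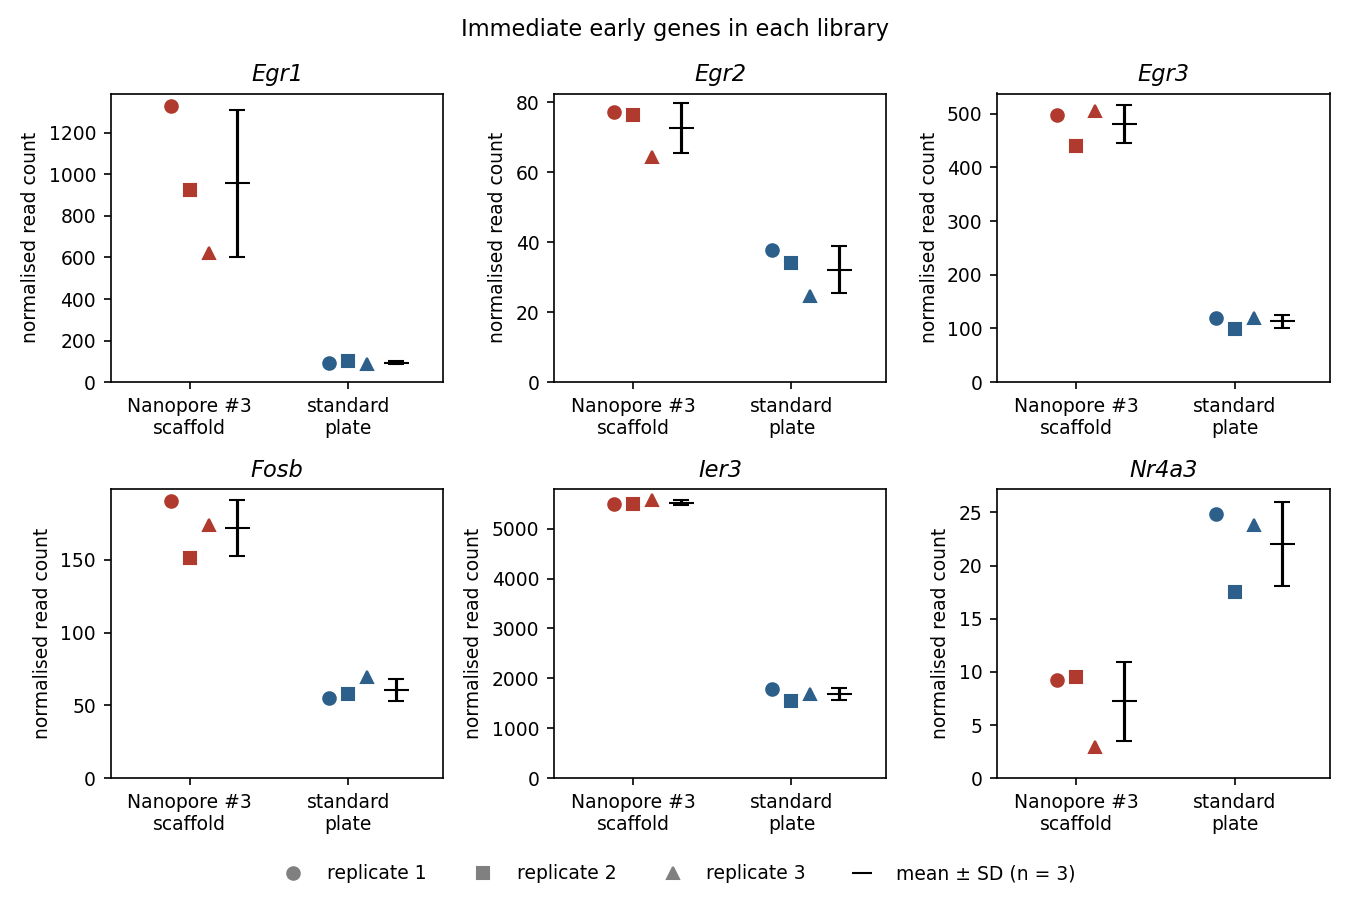
Normalised read count (linear axes from 0) of each gene in the 3 scaffold libraries (red) and the 3 plate libraries (blue), with the mean ± SD beside each group and one marker shape per replicate number. Scaffold values lie above plate values in 5 panels and below them for Nr4a3, and Egr1 spreads from 622.6 to 1326.5 on the scaffold.

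The promoters are shown because immediate early control is known to act there, close to the start site. RefSeq windows (GRCm38.p6) running from 250 bases before an annotated start to 50 bases after it were found for Egr2, Fosb, Ier3 and Nr4a3, but none for Egr1 or Egr3. Capitals mark every match to a motif searched, in the 5′ to 3′ direction of the gene. For Egr2, which had 5 such windows, the first of those with the most motifs is printed. It is chr10:67537619-67537918 on the plus strand, while Fosb is at chr7:19309996-19310295 on the minus strand. Ier3 is at chr17:35821463-35821762 and Nr4a3 at chr4:48045055-48045354, both on the plus strand.
Egr2: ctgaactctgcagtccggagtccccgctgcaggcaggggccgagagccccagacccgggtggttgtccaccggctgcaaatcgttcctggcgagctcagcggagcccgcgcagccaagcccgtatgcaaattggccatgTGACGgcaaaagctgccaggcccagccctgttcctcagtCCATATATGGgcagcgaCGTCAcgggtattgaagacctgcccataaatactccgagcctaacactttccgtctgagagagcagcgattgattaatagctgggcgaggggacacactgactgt
Fosb: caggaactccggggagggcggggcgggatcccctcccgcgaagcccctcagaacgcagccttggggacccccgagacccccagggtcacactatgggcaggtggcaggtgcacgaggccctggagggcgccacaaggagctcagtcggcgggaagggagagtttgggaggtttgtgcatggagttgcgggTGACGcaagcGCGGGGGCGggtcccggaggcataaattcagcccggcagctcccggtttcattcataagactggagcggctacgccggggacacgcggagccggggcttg
Ier3: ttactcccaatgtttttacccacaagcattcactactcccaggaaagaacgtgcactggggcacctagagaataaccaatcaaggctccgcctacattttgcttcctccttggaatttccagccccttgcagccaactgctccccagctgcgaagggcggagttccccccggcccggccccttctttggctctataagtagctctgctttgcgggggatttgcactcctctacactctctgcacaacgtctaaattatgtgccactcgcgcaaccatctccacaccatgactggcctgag
Nr4a3: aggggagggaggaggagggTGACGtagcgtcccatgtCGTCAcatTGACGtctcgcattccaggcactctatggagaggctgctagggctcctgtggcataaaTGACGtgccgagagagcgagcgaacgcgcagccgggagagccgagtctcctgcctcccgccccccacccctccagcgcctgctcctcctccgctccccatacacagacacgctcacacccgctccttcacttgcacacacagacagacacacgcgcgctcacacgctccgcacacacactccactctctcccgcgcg

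The motifs were the CArG box, the full cAMP response element TGACGTCA and its short form TGACG, the Egr motif GCGNGGGCG, the AP-1 motif TGANTCA and TATAAA, searched on both strands. Every full element also holds the short form on each strand. Egr2 had a CArG box whose first base lies 72 bases before the start site of the printed window, with a TGACG on each side of it. CArG boxes were found in 1.63% of the 32851 RefSeq windows of this length. A further CArG box lay in another Egr2 window, also with its first base 72 bases before that start. Nr4a3 had 4 TGACG matches and no other match; 20.8% of all windows held at least 1. Fosb had a TGACG match and, 50 bases before its start, an Egr motif, which 5.55% of windows held. Ier3 had no match, which says only that these letters are not in its window. The full element, the AP-1 motif and TATAAA were found in none of the printed windows, against 1.79%, 7.81% and 13.6% of all windows.

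**Figure D2:**
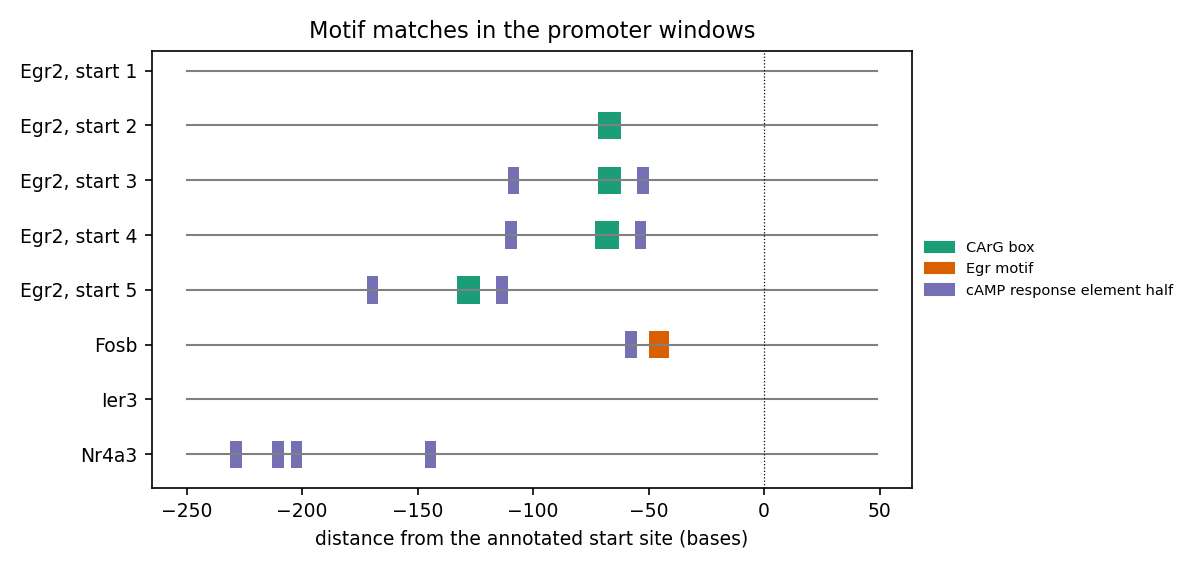
Motif matches (coloured boxes) in the 8 RefSeq promoter windows of Egr2, Fosb, Ier3 and Nr4a3, plotted by distance in bases from each annotated start site, with upstream to the left. Egr2 starts 3 to 5 share the same CArG box and start 2 has another. Nr4a3 has 4 TGACG matches, all over 140 bases upstream of its RefSeq start at 48045305. The Nr4a3 gene start in GENCODE M21, 48045153, lies inside this window, and the match at 48045158 to 48045162 lies after it.

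A second sequence feature, the AU-rich pentamer ATTTA, is known from 3′ UTRs of mRNAs that decay fast. It was looked for in the longest annotated 3′ UTR of each gene (GENCODE M21). Ier3 had 5 pentamers in 613 bases, and of 4388 genes with a 3′ UTR within 1.5-fold of that length, 73 had more, where the median was 1. A stretch of 30 bases that holds 2 of them is shown, at chr17:35822488-35822517 on the plus strand of GRCm38, with the pentamers in capitals.
Ier3: ttaatATTTAtgtATTTAtgtatatcctcc
The other genes were nearer to genes of like length. Egr3 had 7 pentamers where the median was 4, Egr2 had 3 and Egr1 had 2 where it was 2, Nr4a3 had 5 where it was 5, and Fosb had 1 where it was 4. The count depends on the transcript for Egr3, with 0 to 7 over its GENCODE basic transcripts, and for Fosb, with 0 to 1. None of the 6 had the longer AU-rich form TTATTTATT, which 7.61% of 21025 genes with a 3′ UTR had.

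Levels of different genes were compared per kilobase of exon length, as normalised counts per kb. Ier3, the shortest at 1.131 kb, stood at 4882 ± 46.5 per kb on the scaffold and 1484 ± 105 on plates, far above the others in both. On the scaffold, Egr1 followed with 213 ± 78.8 and Egr3 with 109 ± 8.07 per kb, and their libraries did not overlap. On plates the order of this pair was turned, with Egr3 at 25.7 ± 2.67 and Egr1 at 21.1 ± 1.84 per kb, and there their libraries overlapped. Fosb and Egr2 came next, at 27.5 ± 3.12 and 21.4 ± 2.10 per kb on the scaffold. On plates the same pair, at 9.73 ± 1.23 and 9.46 ± 1.96 per kb, differed by less than either SD. Nr4a3 was last in both groups, at 1.21 ± 0.620 per kb on the scaffold and 3.68 ± 0.663 on plates. Reads of different isoforms of a gene are summed in these values.

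Egr1 was the gene of the 6 whose scaffold replicates differed most beyond counting error. Its coefficient of variation (SD over mean) was 36.9% among scaffold libraries and 8.76% among plate libraries. On the scaffold this was 11.4 times the spread that counting reads alone would give, and on plates 0.851 times. Of the 51 other genes within 2-fold of its scaffold mean, 2 had a larger coefficient of variation, Aldh1a7 and Cemip, both lower on the scaffold, and the median was 7.28%. For the other members the scaffold spread was between 0.708 times (Ier3) and 1.62 times (Egr3) the counting spread, with 9.84% for Egr2, 7.38% for Egr3, 11.3% for Fosb, 0.953% for Ier3 and 51.2% for Nr4a3. On plates, Ier3 was the widest relative to counting, at 7.05% and 2.89 times the counting spread, and 5 of 42 genes of like level had more. Over all 581 genes the median coefficient of variation was 21.2% on the scaffold and 14.0% on plates.

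**Figure D3:**
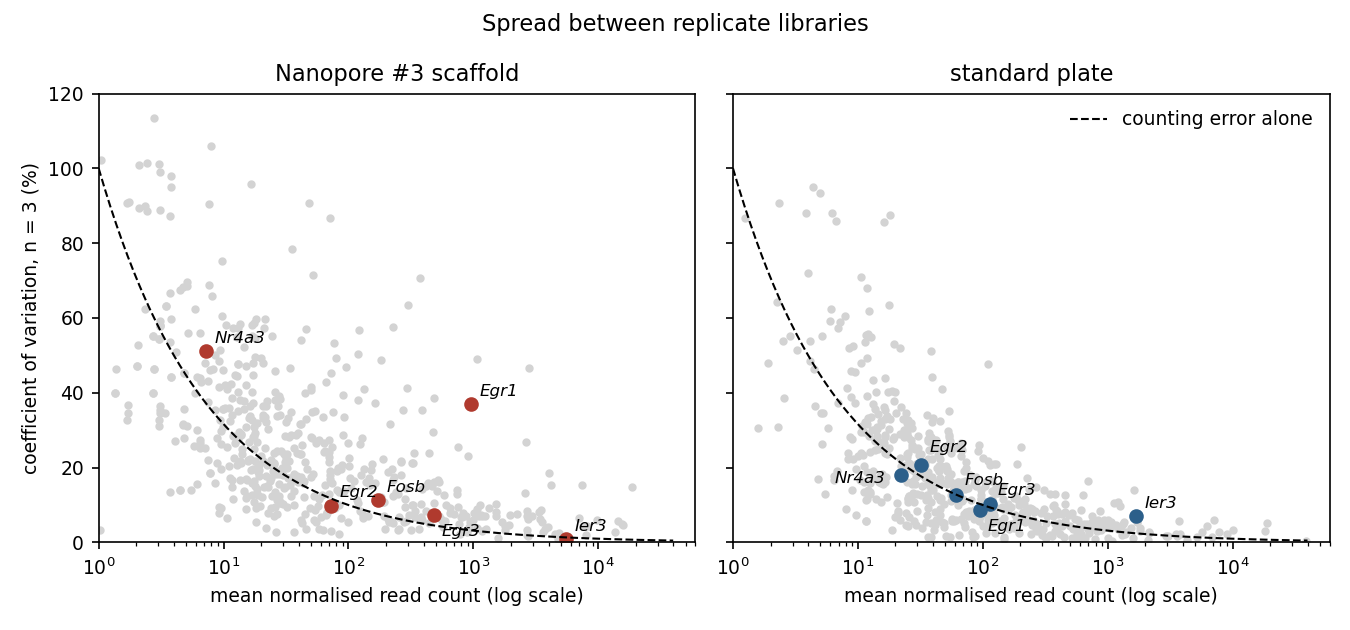
Coefficient of variation among 3 libraries (%) against mean normalised read count (log axis) for all 581 genes (grey) and the 6 genes (coloured), on the scaffold (left) and on plates (right); the dashed line is counting error alone, taking values as reads. Egr1 lies at 36.9% on the scaffold, above nearly all genes of its level, and at 8.76% on plates.

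Among scaffold libraries, Egr1 was highest in replicate 1 and lowest in replicate 3, an order that most genes called higher did not have. Relative to the scaffold mean on the log2 scale, Egr1 deviated by 0.54 in replicate 1, by 0.01 in replicate 2 and by -0.55 in replicate 3. Of the 182 other genes called higher on the scaffold (leaving out the 6), 110 had their lowest scaffold value in replicate 1 and 27 their highest there. In replicate 3, 91 had their highest and 27 their lowest scaffold value. Of the 391 other genes called lower, 220 were highest in replicate 1 and 195 lowest in replicate 3, with median deviations of 0.18 and -0.15 in these libraries. How many of the genes called lower had both was not counted. Among all 187 called higher, 14 were highest in replicate 1 and lowest in replicate 3. Egr1 had the widest ratio of these, 2.13, followed by the predicted gene Gm40578 with 1.73, and Egr2 was among them with 1.20. Egr3 and Ier3 were instead highest in scaffold replicate 3, and Fosb in replicate 1. Nr4a3 deviated by 0.44, 0.48 and -0.93, with the low value in replicate 3.

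**Figure D4:**
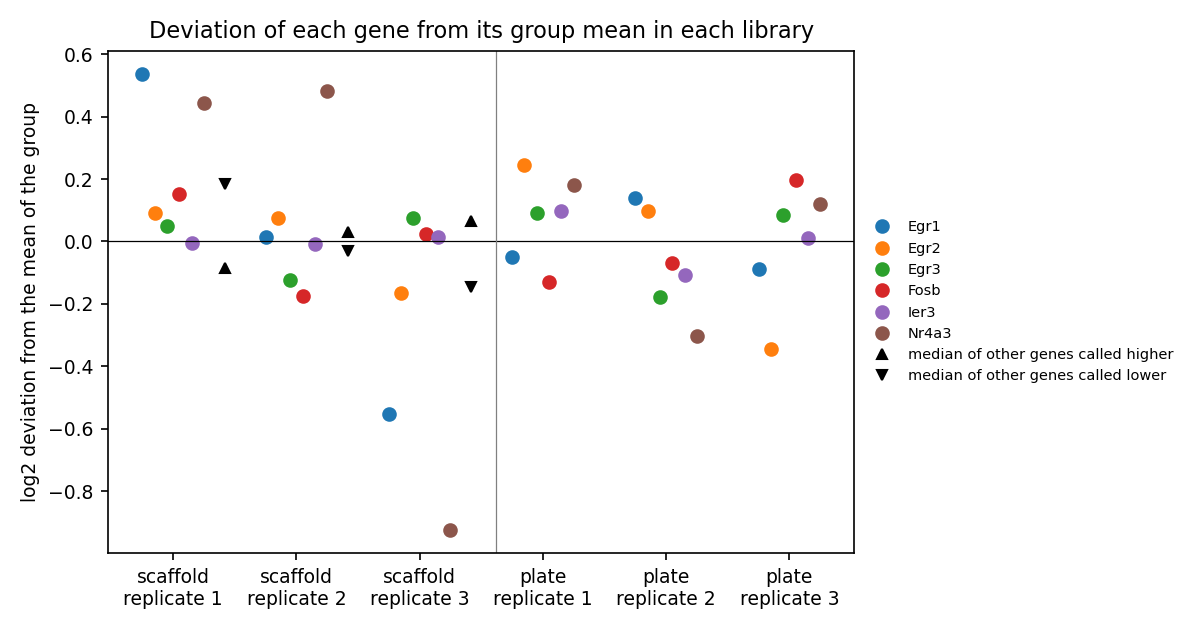
Deviation of log2(normalised count + 1) from the mean of its group in each library for the 6 genes (coloured points), scaffold libraries left and plate libraries right. Triangles give the scaffold medians of the other genes called higher (up) or lower (down); Egr1 lies at 0.54 in scaffold replicate 1 and at -0.55 in scaffold replicate 3, where the higher genes have medians of -0.09 and 0.06 and the lower genes 0.18 and -0.15.

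Genes most like each member were found by the distance between log2 profiles over the 6 libraries, each set relative to its own plate mean, among the other genes with a mean of at least 20 (410 for each member but Nr4a3, which had 411). Nearest to Egr3 was Plau, the urokinase plasminogen activator, at a distance of 0.23, followed by the receptor gene Lgr6 at 0.30 and the ERK phosphatase gene Dusp5 at 0.38. Nearest to Fosb were the cytokine gene Lif at 0.28, Enthd1 at 0.36 and the urokinase receptor gene Plaur at 0.39. Ier3 had the closest neighbours, with Rgs16, a regulator of G protein signalling, at 0.17, Evi2a at 0.22 and Ngef at 0.23. Egr2 lay nearest to the farnesyl diphosphate synthase gene Fdps at 0.30, the mitochondrial tRNA gene mt-Tc at 0.37 and Phlda1 at 0.39. Of exon length, 26.7% of Fdps and 19.2% of Evi2a is shared with another gene on the same strand, so their values are uncertain. Nothing lay so near to Egr1, whose closest genes were the chemokine receptor gene Ccr1 at 1.20, Padi2 at 1.68 and Angptl4 at 1.72. The nearest to Nr4a3 were Gm33869 at 0.56, Gm14091 and Siglecg, both at 0.63. Between members the smallest distances were 0.55 for Fosb and Ier3 and 0.65 for Egr3 and Ier3.

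Other immediate early genes in the table mostly had the same direction as the Egr genes. The gene lists used here and below were written with earlier results of these data known, so their counts are no independent evidence. Of 54 further immediate early symbols, 7 were in the table; 6 rose and 1 fell (median log2 difference 1.19), in a table with 32.2% of genes higher, 67.5% lower and a median of -1.16. Dusp5, which removes phosphate from nuclear ERK, rose to 2704 ± 54.2 on the scaffold, against 600 ± 22.7 on plates (log2 difference 2.17, limma adjusted p = 2.18e-08). Ptgs2, the inducible cyclooxygenase, averaged 15706 ± 715 on the scaffold and 4345 ± 24.7 on plates (limma adjusted p = 8.62e-09), and Plk3, a polo-like kinase, 2704 ± 91.5 on the scaffold and 1106 ± 50.3 on plates (limma adjusted p = 3.6e-07). Dusp6, Trib1 and Phlda1 rose as well. Of exon length, 22.1% of Dusp5 and 33% of Phlda1 is shared with a gene on the opposite strand, whose reads cannot be told apart here. Per2, a clock gene that serum also induces, fell by 1.44 on the log2 scale, to 70.4 ± 15.2 on the scaffold, against 191 ± 21.9 on plates. The list was not complete. Npas4, an immediate early gene left off it, was in the table and lower too, averaging 73.8 on the scaffold and 257 on plates. Fos, Fosl1, Jun, Junb, Nr4a1, Nr4a2, Egr4, Atf3 and Myc were among the symbols not in the table.

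Ligands that act through ERK were also in the table. From the list of 28 ligands and receptors, 4 were in the table, of which 3 rose and 1 fell (median log2 difference 1.36), against 32.2% higher and 67.5% lower over all genes. The EGF receptor ligand genes Hbegf and Ereg rose by log2 differences of 1.74 and 1.61, and Fgf2 by 1.11. The receptor gene Erbb3 fell to 44.5 ± 3.38, against 97.0 ± 13.7 on plates; its adjusted p of 0.000392 became 0.132 with equal medians and 0.053 after quantile normalisation. All 3 ERK feedback inhibitors present of 23 looked for, Dusp5, Dusp6 and Spry2, rose (median 1.19), where 32.2% of all genes did, Spry2 to 1183 ± 37.7, against 549 ± 34.4 on plates.

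Reported targets of AP-1 and of Egr proteins were looked at next. Of 20 AP-1 targets, 10 were in the table, with 8 higher and 2 lower (median log2 difference 1.39), against 32.2% higher and 67.5% lower over all genes. The matrix protease genes Mmp13 and Mmp10 rose by log2 differences of 2.63 and 2.44, and Plau by 2.18, with Hbegf also on this list. Mmp13 rests on few reads, averaging 20.7 ± 4.52 on the scaffold and 2.55 ± 0.983 on plates. Its log2 difference was 3.02 with a pseudocount of 0.1. Those that fell were Sphk1, a sphingosine kinase gene, and Vegfd. Of 26 Egr corepressor and target symbols, 9 were in the table, with 4 higher and 5 lower; their median of -1.08 was near the -1.16 of all genes, of which 32.2% were higher and 67.5% lower. Plau, Ptgs2, Hbegf and Fgf2 rose, while the cholesterol exporter gene Abca1 fell by 2.27 on the log2 scale, and Col1a1, Col1a2, Thbs1 and Id3 fell too. Col1a2 had the highest value in every library. Quantile normalisation gives such a gene the same value throughout, so the difference of Col1a2 cannot be judged by it. The Egr corepressor genes Nab1 and Nab2 were not in the table. Several genes stand on both lists, and a reported target need not respond in these cells.

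Genes that serum response factor controls with MRTF in the actin cytoskeleton made up another list. Of 30 such symbols, 3 were in the table and all fell (median -1.27), where 67.5% of all genes fell with a median of -1.16 over the table, so the list was near that background. Myl9, a myosin light chain gene, averaged 6.44 ± 2.83 on the scaffold and 25.8 ± 1.73 on plates (limma adjusted p = 0.000882). Synpo2 averaged 9.99 ± 3.57 on the scaffold and 24.4 ± 1.11 on plates (adjusted p = 0.00396), and Acta2, smooth muscle actin, 69.6 ± 19.1 on the scaffold and 146 ± 16.9 on plates (adjusted p = 0.00102). Equal medians ended the calls of Synpo2 and Acta2 (adjusted p = 0.14 and 0.154), and quantile normalisation that of Synpo2 (0.114). Reported CREB targets, 2 of 22, were Ptgs2, higher, and Per2, lower (median 0.21). Of 25 NF-kB targets 3 were present (median 1.13): Ccl2 rose by 1.13, Csf3 by 2.44 and Ptx3 fell by 2.82 on the log2 scale, against 32.2% higher and 67.5% lower over all genes. Csf3 had 0 reads in a plate library, and its adjusted p of 0.0132 became 0.0865 with a pseudocount of 0.01. Its log2 difference became 1.33 when plate replicate 3 was left out and 3.07 when plate replicate 2 was. For Ptx3, leaving out scaffold replicate 1 gave -3.49 and leaving out scaffold replicate 3 gave -2.17, and for Ccl2 the difference was 0.29 after quantile normalisation. None of 17 heat and dissociation stress symbols was in the table.

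**Figure D5:**
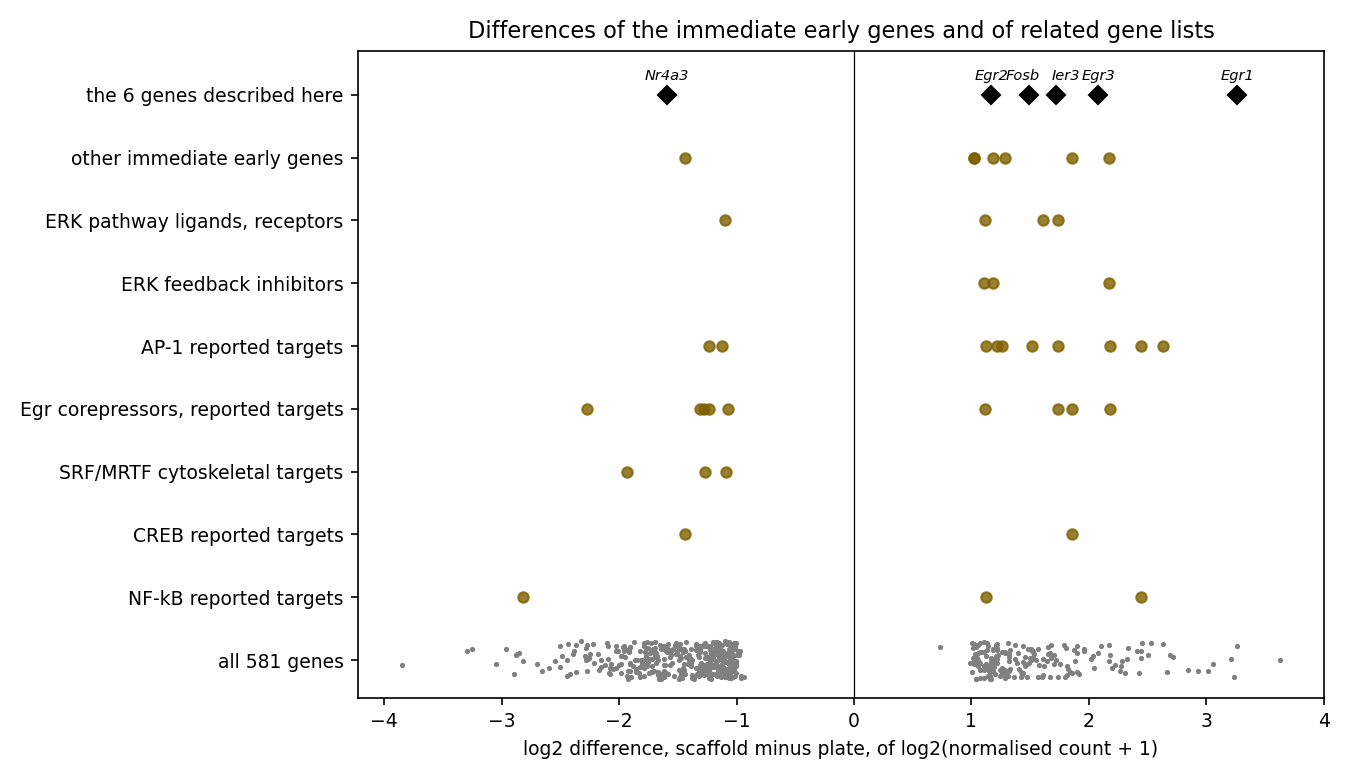
Log2 difference, scaffold minus plate, of log2(normalised count + 1) for the 6 genes (black diamonds), for members of 8 related lists present in the table (brown) and for all 581 genes (grey, jittered vertically). The gap between about -1 and 1 is set by the selection of the table; the 6 genes run from -1.60 for Nr4a3 to 3.26 for Egr1.

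Unlike the Egr genes and Fosb, most other transcription factor genes in the table were lower on the scaffold, as were most genes of the table. A column of the table assigns 24 further genes to a transcription factor family, and 4 of these rose and 20 fell. That is 16.7% higher, against 32.2% higher and 67.5% lower over all genes. The 4 were Sox9, Id4, Arid5a and Foxc2, with log2 differences of 1.31, 1.32, 1.16 and 1.04. All 6 other genes of the zinc finger family of the Egr genes fell, among them Gli2, a Hedgehog pathway factor (58.4 on average on the scaffold and 124 on plates), and Ikzf2. All 3 other genes of the bZIP family of Fosb fell, namely the clock output genes Dbp and Hlf and the repressor gene Bach2, by 1.21, 1.73 and 1.83 on the log2 scale; 18% of the exon length of Dbp is shared with Sphk2 on the opposite strand. Whether these shares differ from that of all genes was not tested.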

How the data were processed

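The labels gave 3 scaffold and 3 plate libraries of NIH-3T3 total RNA (TRIzol, NEBNext Ultra kit, per the labels' protocols). The submitters' processing notes name the tools HISAT2, HTSeq, fastp and DESeq2 and the build GRCm39, without versions, roles or strand setting. The authors deposited one table per group of the same 581 selected genes. The deposited unit is a signal, in which each library's reads per gene were divided by a size factor of 0.944 to 1.09: 100% were whole multiples of one step per library, within 0.01 read, although the tables are named FPKM. The design, written for FPKM, named limma, and edgeR if the values turned out to be whole counts. Limma was kept as the main test, and edgeR was run as an alternative on the recovered reads. Table positions of the 6 genes equal those of GENCODE M21 and are given as GRCm38.

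The test was limma 3.58.1 (R 4.3.3) on log2(value + 1), two-sided, with an intensity trend, for genes with a mean of at least 0.5 (none removed) and Benjamini-Hochberg adjustment over 581 genes; it was tested on simulated data. No permutation test is given, since 3 libraries a group allow no exact p under 0.1. Means, SDs and folds are of normalised counts, and reads were recovered in 5 libraries. Members and lists were chosen with earlier results of these data known. Genes named are the 6 members, up to 4 called genes per list with the largest change and the 3 genes most like each member; others were named after their values were seen. The search for AU-rich pentamers was added after seeing the data, and they were also counted in every GENCODE basic transcript with a 3′ UTR. No protein comparison was made. No column of values was left out. Alternatives were no filter, a filter at a mean of 5, pseudocounts of 0.1 and 0.01, 2 rescalings, no trend, a replicate block, leaving out each library, edgeR 4.0.16 on recovered reads, and a shorter promoter window.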

Additional observations from a re-analysis of the deposited data

How the results depend on the processing

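None of the 6 genes changed direction under any alternative run. Rescaling to equal medians moved the log2 differences to 4.02 for Egr1, 1.91 for Egr2, 2.84 for Egr3, 2.24 for Fosb, 2.48 for Ier3 and -0.91 for Nr4a3, and lowered the number of genes called lower from 392 to 208. Quantile normalisation gave 1.82 for Egr2, 2.32 for Egr3, 1.96 for Fosb, 1.09 for Ier3 and -0.74 for Nr4a3, with 212 called lower. Both used only these selected genes, most of them lower. Equal medians shift the log2 differences upward by construction. Quantile normalisation moved genes unequally, with Egr2, Egr3, Fosb and Nr4a3 shifted upward and Ier3 downward. Calls in the lists also moved: equal medians left 0 ERK ligands and receptors and 1 cytoskeletal target called lower, quantile normalisation 0 and, of the fibroblast markers, 1, and a pseudocount of 0.01 left 1 NF-kB target called higher. The coefficient of variation of Ier3 became 6.28% on the scaffold and 12.9% on plates with equal medians, and 0% on the scaffold after quantile normalisation, which gave Egr3 11.6% on the scaffold. That 0% follows from Ier3 holding the same rank in every scaffold library, and says nothing about its spread. Leaving out 1 library at a time kept the log2 difference of Egr1 between 2.99 and 3.54 and that of Nr4a3 between -1.84 and -1.13. The edgeR test on recovered reads of 5 libraries gave 3.57 and -1.23 for these, with 189 genes called higher and 391 lower. With the replicate number as a block, 188 genes were called higher and 392 lower. Deviations of libraries with the same number correlated by -0.0287, 0.0728 and 0.0576 over genes, and not every library correlated best with its own number, so the numbers were not taken to pair the libraries. Few reads limit Nr4a3, and the spread of 3 scaffold libraries limits Egr1.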
